A study of Danio rerio with 4 samples.

Results

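The genes described here were the signals and effectors by which osteoclasts and macrophages are formed and act: the ligands *tnfsf11*, *csf1a*, *csf1b* and *il34*, the receptors *csf1ra*, *csf1rb* and *tnfrsf11a*, the decoy receptor *tnfrsf11b*, and the osteoclast enzymes *ctsk* and *acp5a*. They were chosen by symbol, with earlier results of these data known, and 10 of 10 were found once each among 39988 genes. All 10 had a UMI (a counted transcript molecule) in each juvenile library and in adult replicate 1, and 8 had one in adult replicate 2. The study profiled single live (DAPI-negative) cells of zebrafish calvaria of the strain tubingen, dissected away from the brain, before (9–11 mm, juvenile) and after (22–25 mm, adult) the sutures of the skull roof are established. Juvenile replicate 1 pooled 20 fish and was depleted of ecad:YFP+ cells, the reporter of the epithelial gene *cdh1*; juvenile replicate 2 pooled 20 fish from which sp7:GFP+ cells had been removed, sp7 being an osteoblast gene. Adult replicate 1 pooled 10 fish and was depleted of ecad:YFP+ cells, and adult replicate 2 pooled 10 fish with no reporter gate. Each library is 1 pool, so that stage, gate and pool cannot be fully told apart.

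Osteoclasts are bone-resorbing cells of the monocyte and macrophage lineage, which in mammals arise by fusion of cells of that lineage. In mammals, CSF1 and IL34 signal through the receptor CSF1R, which keeps that lineage alive, and RANKL (encoded by *TNFSF11*) on mesenchymal and osteoblast lineage cells binds RANK (*TNFRSF11A*) on precursors and drives them to become osteoclasts. Osteoprotegerin (*TNFRSF11B*) is a soluble decoy that captures RANKL, and mature osteoclasts digest bone with cathepsin K and carry tartrate-resistant acid phosphatase. Zebrafish carry a pair of genes each for CSF1 and for its receptor, here *csf1a* and *csf1b*, and *csf1ra* and *csf1rb*.

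The cell filter kept 21311 cells, between 2072 and 8313 per library, with 6860615 to 23504027 UMIs per library and a median of 1878 to 2815 UMIs per cell. Between 14 and 101 cell barcodes were shared by any pair of libraries (0.676 to 1.40% of the smaller library). Clustering was done without the 10 genes, and 71 of 92 sub-clusters could be named from markers; 4794 cells stayed unnamed. Neuronal-like cells (4080) and mesenchyme-like cells (3274) were the most numerous named classes. No sub-cluster could be named osteoclast. The 292 macrophage-like cells carried all 10 macrophage markers, but the 18 of them in adult replicate 2 did not. There 9 of 10 markers, including *mpeg1.1*, were at 0 (*lygl1* was the exception), the summed marker level was 302 CPM (UMIs per 1000000 UMIs) against 2854 to 8655 in the other libraries, and the summed level of epithelial markers was 6364 CPM against 52.3 to 550. Results on macrophage-like cells are therefore given with and without adult replicate 2. Adult replicate 2 also had 2 neutrophil-like and 3 microglia-like cells. Juvenile replicate 2, from which sp7:GFP+ cells had been removed, had 9 osteoblast-like cells, and the part of the gate in this was not tested.

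The genes were divided unevenly between connective and myeloid cells. Levels are given in CPM, pooled over the libraries unless a library is named, and intervals are exact 95% Poisson intervals that cover counting error only. Connective and bone clusters together gave 93.4% of the UMIs of *csf1a*, 94.4% of those of *csf1b* and 70.4% of those of *tnfsf11*. By library the *tnfsf11* share was 76.1%, 44.8%, 77.8% and 95.7% (juvenile replicates 1 and 2, adult replicates 1 and 2), and in juvenile replicate 2 clusters on neither side gave 51.7%. The clusters of macrophage-like, microglia-like and neutrophil-like cells gave 74.3% of the UMIs of *acp5a* and 73.3% of those of *csf1ra*, but 0.246% of those of *csf1a* and 0.114% of those of *csf1b*. They gave 26.9% of the *csf1rb* UMIs, of which 65.2% were in clusters on neither side, and in adult replicate 2 they gave none of the 18 *acp5a* UMIs, which were all in connective and bone clusters. By share of UMIs the receptor gene *tnfrsf11a* fell on the side of the ligands, with 86.5% in connective and bone clusters and 4.80% in the myeloid ones. These shares also follow the size of the sides, 8049 connective and bone cells and 710 myeloid cells. Its level was 34.5 CPM in the former (40.3, 30.4, 27.9 and 35.6 by library) and 22.2 CPM in the latter (22.4, 14.8, 33.1 and 20.7). In clusters on neither side it was 3.24 CPM. The clusters were joined into these sides after they had been seen.

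**Figure D1:**
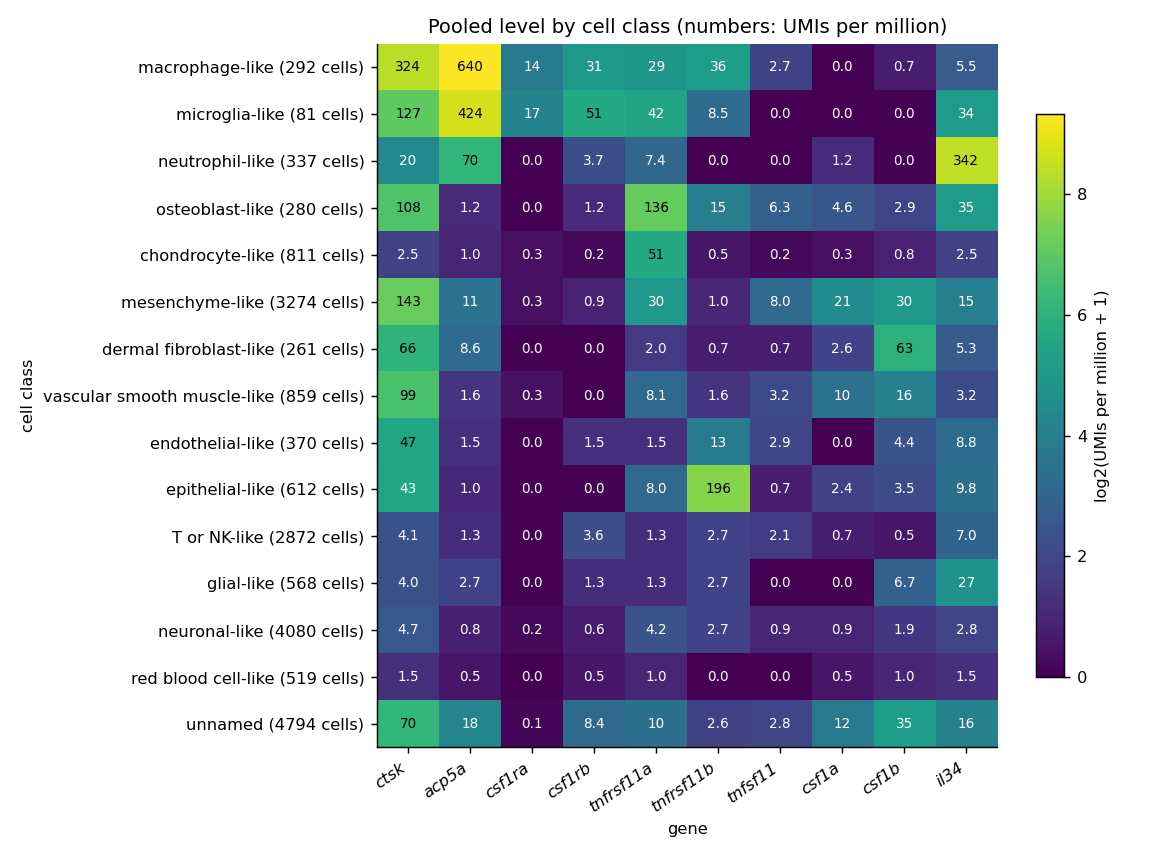
Pooled level of the 10 genes (x axis) in each cell class (y axis), in CPM, coloured on a log2 scale after adding 1. *acp5a* reached 640 in macrophage-like and 424 in microglia-like cells, *ctsk* 324 in macrophage-like and 143 in mesenchyme-like cells, *il34* 342 in neutrophil-like cells, *tnfrsf11b* 196 in epithelial-like cells and *tnfrsf11a* 136 in osteoblast-like cells.

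*ctsk*, which encodes cathepsin K, the collagen-degrading proteinase of osteoclasts, was the most widely detected of the 10 genes. It stood at 44.7 CPM in juvenile replicate 1, 32.5 in juvenile replicate 2, 149 in adult replicate 1 and 91.2 in adult replicate 2. Both adult libraries lay above both juvenile libraries. A *ctsk* UMI was present in 5.69%, 5.99%, 28.5% and 18.2% of the cells in the same order, and in 3.15%, 2.90%, 12.9% and 8.75% once each cell was thinned to 1000 UMIs.

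Most *ctsk* was not in macrophage-like cells: connective and bone clusters gave 74.4% of its UMIs and myeloid clusters 14.6%. The level was highest in macrophage-like cells (324 CPM, interval 296 to 355), followed by mesenchyme-like cells (143, 135 to 151), microglia-like cells (127, 71.2 to 210), osteoblast-like cells (108, 93.3 to 125) and vascular smooth muscle-like cells (98.7, 87.9 to 110). The order rests on pooled sums. The macrophage-like level was 698 and 192 CPM at the juvenile stage and 104 and 101 at the adult stage, a spread that overlaps those of the next classes. In mesenchyme-like cells *ctsk* stood at 113, 134, 249 and 108 CPM (juvenile replicates 1 and 2, adult replicates 1 and 2), and in osteoblast-like cells at 73.3, 111 and 137 CPM in the 3 libraries with at least 10 such cells. Among mesenchyme-like sub-clusters it was highest in the one led by *lum* and *postnb* (244 CPM, with 150, 244, 471 and 161 by library). Free RNA can give a floor to such values and was not measured. For comparison, 26.0% of mesenchyme-like cells carried a *ctsk* UMI (13.0% thinned, median 2415.5 UMIs) against 0.711% of neuronal-like cells (0.413% thinned, median 937 UMIs). Neuronal-like cells were mostly juvenile (1640, 2289, 35 and 116 by library), so that their pooled shares, here and below, say little of the adult libraries. In clusters on neither side *ctsk* stood at 10.5, 9.78, 32.3 and 56.5 CPM by library.

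*acp5a* encodes tartrate-resistant acid phosphatase, the classical stain of osteoclasts. Its level was 41.4 and 13.9 CPM at the juvenile stage and 24.2 and 2.33 at the adult stage, so that the stages overlapped. It was carried by few cells: 92, 64, 49 and 17 cells had a UMI, and the 3 highest cells of a library held 59.1%, 60.1%, 33.1% and 22.2% of its *acp5a* UMIs. By class it was highest in macrophage-like cells (640 CPM, interval 600 to 683), followed by microglia-like (424, 315 to 559) and neutrophil-like cells (70.3, 53.2 to 91.1). The microglia-like level rested on few cells. Of the 81 cells of that class 10 had a UMI, and the 2 highest, with 24 and 16 UMIs, belong to the set described below. The macrophage-like level was 1417, 337 and 238 CPM in juvenile replicates 1 and 2 and adult replicate 1. It was 0 among the 39756 UMIs of these cells in adult replicate 2, which allows up to 75.5 CPM. An *acp5a* UMI was present in 29.1% of macrophage-like cells (median 4150 UMIs) and in 0.123% of neuronal-like cells (median 937 UMIs).

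A small set of cells stood apart by *acp5a*. Of the 222 cells with a UMI, 132 had 1, the next highest below a limit of 10 had 8 and the lowest above it had 13; the limit was set after these values were seen, and what follows is a description. The 18 cells above it held 1031 of 1403 *acp5a* UMIs (73.5%). They came from juvenile replicate 1 (10 cells), juvenile replicate 2 (5) and adult replicate 1 (3), and none of the 2994 cells of adult replicate 2, which allows a share of up to 0.1%. The highest cell, in juvenile replicate 1, had 271 UMIs of *acp5a* and 11 of *ctsk*, and the second had 156 and 173.

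The markers of osteoclasts and macrophages were then read in these 18 cells, with those of osteoblasts beside them. A *ctsk* UMI was present in 16 of the 18, and *ctsk* stood at 4069 CPM against 153 CPM in the other macrophage-like cells. The proteinase genes *mmp9* and *mmp13b* and the proton pump subunit gene *tcirg1b* each had a UMI in 13 cells, and *ocstamp*, which in mouse is needed for osteoclast fusion, in 11. *ocstamp* stood at 890 CPM against 9.99 CPM in the other macrophage-like cells and 0.805 CPM in all other kept cells. It was not confined to the set. In all microglia-like cells, 2 of them in the set, *ocstamp* stood at 204 CPM and *mmp9* at 636 CPM (1096 CPM in the set). These pooled levels came from few cells, since *ocstamp* had a UMI in 12.3% and *mmp9* in 4.94% of the 81 microglia-like cells. The next 2 genes are set only against all other kept cells, most of which were not myeloid. *tyrobp* (an adaptor of myeloid receptors) stood at 705 against 2.75 CPM, and *snx10b* (an ortholog of a sorting nexin gene needed by human osteoclasts) at 445 against 1.38. The bone matrix gene *spp1* was present in 16 cells at 9463 CPM, against 20.7 in the other macrophage-like cells and 408 in all other kept cells. In microglia-like cells *spp1* stood at 1400 CPM, with a UMI in 6.17% of them. In osteoblast-like cells it stood at 12304 CPM, with a UMI in 82.1%, and *mmp9* stood there at 447 CPM. Of the other listed osteoblast markers, *phex* had a UMI in 8 of the 18 cells (250 against 2.14 CPM in the other macrophage-like cells). *bglapl* had one in 2 and *ifitm5* in 1, while *sp7*, *runx2b*, *bglap* and *entpd5a* had none. Of the 10 osteoclast markers listed apart from *ctsk* and *acp5a*, 6 stood above their level in the other macrophage-like cells, among them *nfatc1* on 3 cells (54.3 against 2.14 CPM). *siglec15l*, in 1 cell, stood below (10.9 against 38.5 CPM). Of the 10 macrophage markers, 9 stood below their level in the other macrophage-like cells, and *mpeg1.2* was the exception (10.9 against 8.56 CPM). Those other cells were pooled over sub-clusters that differed in such markers. The sub-cluster led by *ccl34a.4* and *grn1* held most macrophage-like cells of the set. With them included, *mpeg1.1* was in 36 of its 121 cells. It was in 93 of 129 and 37 of 42 cells of the sub-clusters led by *ccl35.2* and by *cxcl19*. *lygl1* still had a UMI in 15 of the 18 cells (814 against 1293 CPM), *c1qc* in 7 and *ccl34b.1* in 6, while *mpeg1.1* had one in 3 and *c1qb* in 1. Outside these lists, the antigen presentation gene *cd74a* had a UMI in 5 cells and the collagen gene *col1a2* in 3. Of the receptor genes, *tnfrsf11a* had a UMI in 5 cells, *csf1ra* in 2 and *csf1rb* in 0. The remaining 3 listed osteoclast markers, *dcstamp*, *acp5b* and *calcr*, had no UMI in any of them. The 15 cells with 5 to 9 *acp5a* UMIs differed from most of the set: all were macrophage-like, all had *cd74a*, 14 had *mpeg1.1*, 2 had *ocstamp* and 0 had *mmp13b*. The set itself was mixed, since 2 of its macrophage-like cells, with 17 and 13 *acp5a* UMIs, resembled these. They had 13 and 237 UMIs of *cd74a*, 8 and 10 of *mpeg1.1*, 2 each of *ocstamp* and 0 of *mmp13b* and *spp1*. Most *cd74a* and *mpeg1.1* UMIs of the set were in them. Of the 18 cells 9 were macrophage-like and the rest were spread over other sub-clusters, and 2 of them were among the 5% of cells of their library with the highest doublet scores.

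**Figure D2:**
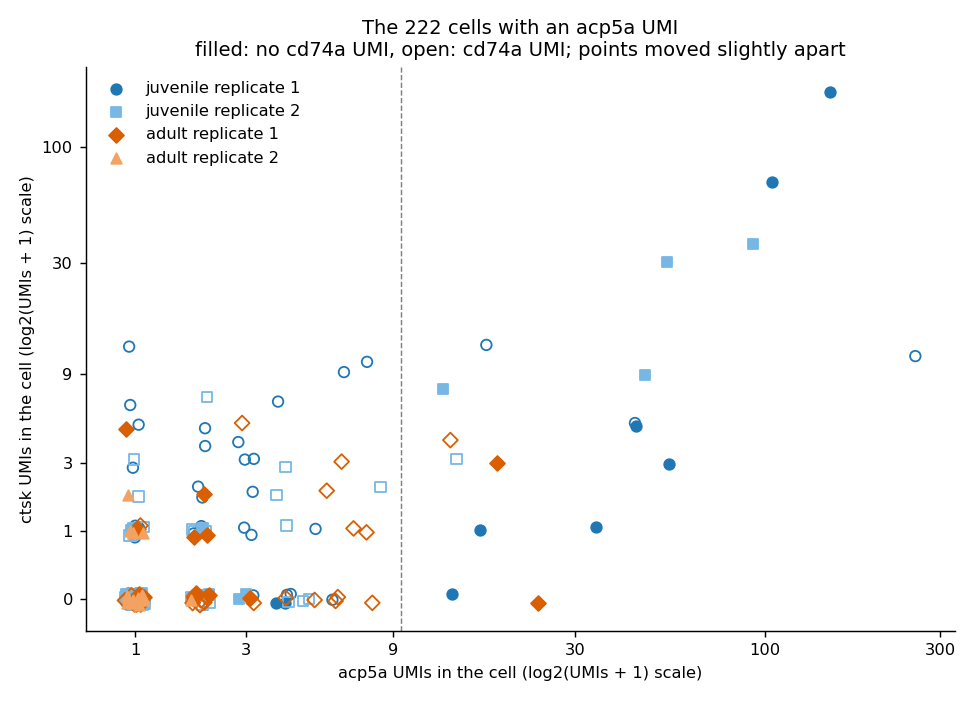
The 222 cells with an *acp5a* UMI, by their UMIs of *acp5a* (x axis) and of *ctsk* (y axis), both on a log2 scale after adding 1; marker shape and colour give the library, filled points had no *cd74a* UMI, and the dashed line is the limit of 10. To the right of it, 16 of 18 cells carried *ctsk*, and none came from adult replicate 2.

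These cells also carried part of the totals. Without them *acp5a* stood at 6.46, 4.43, 16.2 and 2.33 CPM by library and *ctsk* at 31.8, 28.8, 148 and 91.2. The difference of the stage means (adult minus juvenile) of *acp5a* thereby turned from -14.4 to 3.83 CPM, the stages overlapping in both cases, while that of *ctsk* went from 81.2 to 89.2 CPM. In macrophage-like cells *acp5a* went from 640 to 153 CPM and *ctsk* from 324 to 153 CPM (271, 109, 95.1 and 101 by library).

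The CSF1 receptor genes were detected at low depth. *csf1ra*, which is also known in zebrafish for its part in pigment cells, had 16, 5, 9 and 0 UMIs in juvenile replicates 1 and 2 and adult replicates 1 and 2 (0.741, 0.213, 1.31 and 0 CPM). *csf1rb*, which in zebrafish also marks blood progenitors, had 57, 134, 10 and 0 UMIs (2.64, 5.70, 1.46 and 0 CPM). The 0 of adult replicate 2 allows up to 0.388 CPM. *csf1rb* was lower in both adult libraries than in both juvenile ones, and *csf1ra* overlapped between the stages.

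The shares of the receptor pair by class follow. Macrophage-like cells held 20 of the 30 *csf1ra* UMIs (13.7 CPM, interval 8.36 to 21.1; 24.0, 5.27, 15.2 and 0 by library). They held 45 of the 201 *csf1rb* UMIs (30.8 CPM, interval 22.5 to 41.2; 17.4, 56.2, 12.7 and 0 by library). Another 73 *csf1rb* UMIs were in an unnamed sub-cluster of 165 cells with *myb*, a gene of blood progenitors, among its leading genes (66.8 CPM, interval 52.4 to 84.0). In that sub-cluster *csf1rb* stood at 57.1 and 77.8 CPM in the juvenile libraries, and the adult libraries had only 2 and 7 of its cells. 3 cells had UMIs of both receptor genes, of 27 with *csf1ra* and 137 with *csf1rb*, all 3 of them macrophage-like. Within the macrophage-like class the sub-cluster led by *ccl34a.4* and *grn1* held most of both genes, 39 of the 45 *csf1rb* UMIs (47.2 CPM) and 14 of the 20 *csf1ra* UMIs (16.9 CPM). At 1 or 2 UMIs per cell, a cell without a UMI cannot be called negative.

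*tnfrsf11a*, which encodes RANK, stood at 19.6 and 11.3 CPM at the juvenile stage and 23.8 and 32.7 at the adult stage, the adult libraries above the juvenile ones. Its level was highest in osteoblast-like cells at 136 CPM (interval 120 to 155), with 156 in juvenile replicate 1, 156 in adult replicate 1 and 107 in adult replicate 2. Chondrocyte-like cells followed at 51.1 CPM (45.6 to 57.0; 49.8, 52.7, 74.4 and 21.3 by library), then, after microglia-like cells at 42.4 CPM on 5 UMIs, mesenchyme-like cells at 30.5 CPM (26.6, 29.2, 22.9 and 40.6) and macrophage-like cells at 28.7 CPM (30.5, 17.6, 43.1 and 25.2). All libraries of osteoblast-like cells lay above those of chondrocyte-like, mesenchyme-like and macrophage-like cells, which overlapped among themselves. The adult chondrocyte-like values rest on 14 and 16 cells. Within the osteoblast-like class the sub-cluster led by *bglap* and *bglapl*, genes of mature osteoblasts, stood at 160 CPM (159, 177 and 148 in the same 3 libraries) and the one led by *spp1* and *mmp13b* at 110 CPM (154, 95.2 and 58.7). In the mesenchyme-like sub-cluster led by *crhbp* and *hyal4* it stood at 71.1 CPM (88.1, 75.8, 39.7 and 80.0).

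By cells, 44.3% of osteoblast-like cells had a *tnfrsf11a* UMI (12% thinned, median 5655.5 UMIs), against 0.383% of T or NK-like cells (0.246% thinned, median 2300 UMIs). Both *tnfrsf11a* and *ctsk* were detected in 176 cells, 21.8% of the 806 with *tnfrsf11a* and 8.45% of the 2084 with *ctsk*. Of these cells 71 were mesenchyme-like, 54 osteoblast-like and 15 macrophage-like. Among osteoblast-like cells with *tnfrsf11a* 43.5% had *ctsk*, near its share in the whole class (118 of 280). The value was 31.8% in mesenchyme-like cells (850 of 3274 in the class) and 57.7% in macrophage-like cells (98 of 292). Depth, on which detection of both genes depends, was not allowed for. The ligand gene *tnfsf11* and *tnfrsf11a* were together in 16 cells, 15 of them mesenchyme-like, which is 11.1% of the 144 cells with *tnfsf11* and 1.99% of those with *tnfrsf11a*.

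*tnfrsf11b*, which encodes osteoprotegerin, had its highest pooled level in epithelial-like cells. It stood at 1.99 CPM in juvenile replicate 1, 21.3 in juvenile replicate 2, 8.60 in adult replicate 1 and 19.1 in adult replicate 2, so that the libraries depleted of ecad:YFP+ cells were the lowest at each stage. Epithelial-like cells made up 0.553%, 5.45%, 3.28% and 2.20% of the cells and held 74.8% of the UMIs (196 CPM, interval 181 to 213). Their level was 152, 210, 21.1 and 278 CPM, adult replicate 1 standing apart with 68 cells. The part of the gate in the library levels was not tested. There, 43 of the 59 *tnfrsf11b* UMIs were instead in macrophage-like cells, in the sub-cluster led by *cxcl19* and *acod1* (426 CPM in that library), and juvenile replicates 1 and 2 had 1 and 0 UMIs in 9 and 6 cells of the same sub-cluster. Osteoblast-like cells had 26 UMIs (15.0 CPM, interval 9.77 to 21.9), and mesenchyme-like cells had 1.01 CPM, below the 2.67 CPM of neuronal-like cells. By library, connective and bone clusters together gave 23.3%, 2.00%, 0% and 29.7% of the *tnfrsf11b* UMIs (10, 10, 0 and 44 UMIs). In adult replicate 1 all connective and bone clusters, the osteoblast-like cells among them, thus had 0 *tnfrsf11b* UMIs. *tnfsf11* and its decoy were together in 4 cells, of 144 and 248.

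*tnfsf11*, which encodes RANKL, was sparse, with 46, 58, 9 and 46 UMIs (2.13, 2.47, 1.31 and 5.95 CPM), and the stages overlapped. Mesenchyme-like cells gave 45.3% of its UMIs (8.04 CPM, interval 6.29 to 10.1; 6.30, 10.7, 2.80 and 11.8 by library). Osteoblast-like cells stood at 6.33 CPM (3.16 to 11.3), an interval that overlaps the former, and macrophage-like cells at 2.74 CPM on 4 UMIs. The highest sub-clusters were the mesenchyme-like one led by *crhbp* and *hyal4* (13.9 CPM, 9.25 to 20.1) and the osteoblast-like one led by *spp1* and *mmp13b* (13.4 CPM, 6.71 to 24.0, on 11 UMIs). The osteoblast-like sub-cluster led by *bglap*, where *tnfrsf11a* was highest, held 0 of the *tnfsf11* UMIs. The share of mesenchyme-like cells with a *tnfsf11* UMI was 1.92% (0.660% thinned), against 0.147% of neuronal-like cells (0.103% thinned).

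The CSF1 ligand genes were both connective tissue genes but of partly different cells. *csf1a* stood at 4.54 and 1.15 CPM at the juvenile stage and 26.1 and 13.3 at the adult stage, the adult libraries above. *csf1b* stood at 13.3 and 8.25 against 44.3 and 12.2, and the stages overlapped. Mesenchyme-like cells gave 47.2% of the *csf1a* UMIs (21.4 CPM, interval 18.5 to 24.7; 20.3, 7.75, 37.5 and 20.5 by library), and vascular smooth muscle-like cells followed at 10.4 CPM (7.11 to 14.7). *csf1b* was highest in dermal fibroblast-like cells, at 63.4 CPM (51.3 to 77.4; 61.2, 73.5, 123 and 20.5 by library), where *csf1a* had 4 UMIs (2.64 CPM). Mesenchyme-like cells had *csf1b* at 30.3 CPM (47.2, 36.4, 28.5 and 9.11), a range that overlaps the former. Osteoblast-like cells had 8 UMIs of *csf1a*, all in adult replicate 1.

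By sub-cluster, the mesenchyme-like cells led by *crhbp* and *hyal4* had *csf1a* at 49.7 CPM (34, 5.23, 81.5 and 64.0), and an unnamed sub-cluster of 710 cells led by *tnn* and *mamdc2b* had *csf1a* at 44.0 CPM (30.1, 5.75, 79.2 and 20.6) and *csf1b* at 114 CPM (85.9, 84.4, 166 and 61.7). The latter held 30.5% of all *csf1a* UMIs and 36.6% of all *csf1b* UMIs. The mesenchyme-like cells led by *crhbp* and *sost* had the highest levels of both, *csf1a* at 70.7 CPM (131, 70.4, 36.2 and 21.6) and *csf1b* at 215 CPM (534, 121, 72.4 and 43.3). They numbered 165, 10 of them in adult replicate 1, and the juvenile libraries were above the adult ones. The share of all genes with such an order was not computed for this sub-cluster. In mesenchyme-like cells as a whole it was 39.1% of 12307 genes. Both genes were detected in 56 cells, 18.5% of the 302 with *csf1a* and 9.00% of the 622 with *csf1b*, and 39 of these were unnamed cells.

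**Figure D3:**
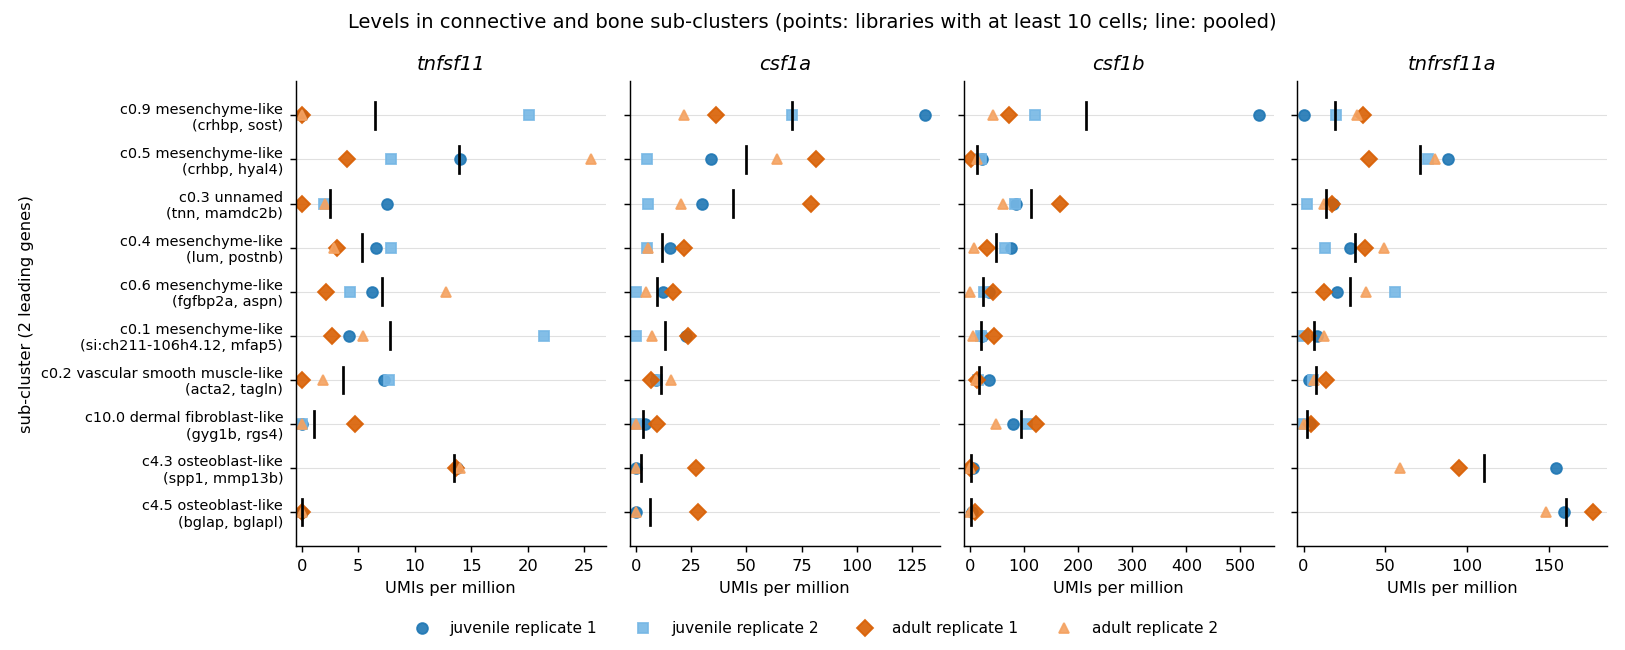
Level of *tnfsf11*, *csf1a*, *csf1b* and *tnfrsf11a* (x axes, CPM, each panel with its own scale) in connective and bone sub-clusters (y axis, with 2 leading genes); points are libraries with at least 10 cells of the sub-cluster and the black line is the pooled level. *csf1b* reached 534 in juvenile replicate 1 in the cells led by *crhbp* and *sost*, and *tnfrsf11a* was highest in the osteoblast-like cells led by *bglap* and *bglapl* (160 pooled).

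*il34* encodes the second ligand of CSF1R. It stood at 17.9 and 11.2 CPM at the juvenile stage and 17.9 and 11.1 at the adult stage, and the stages overlapped. It was highest not in connective tissue but in neutrophil-like cells, at 342 CPM (interval 303 to 384), with 621 and 273 in the juvenile libraries and 145 in adult replicate 1. These 337 cells gave 32.2% of the UMIs, and 38.0% of them had an *il34* UMI (27.6% thinned, median 1486 UMIs), against 0.441% of neuronal-like cells (0.362% thinned, median 937 UMIs). Both neutrophil-like sub-clusters carried it, at 358 CPM in the one led by *lyz* and *npsn* and 284 CPM in the one led by *lect2l* and *mmp13a*. Osteoblast-like cells followed at 34.5 CPM (26.4 to 44.5; 33.4, 20.8 and 42.1 in the 3 libraries), with 67.2 CPM in the sub-cluster led by *spp1* and *mmp13b*. Glial-like cells had 26.7 CPM and mesenchyme-like cells 14.7 CPM. The 12 *il34* UMIs of photoreceptor-like cells (27.2 CPM) were all in adult replicate 1.

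**Figure D4:**
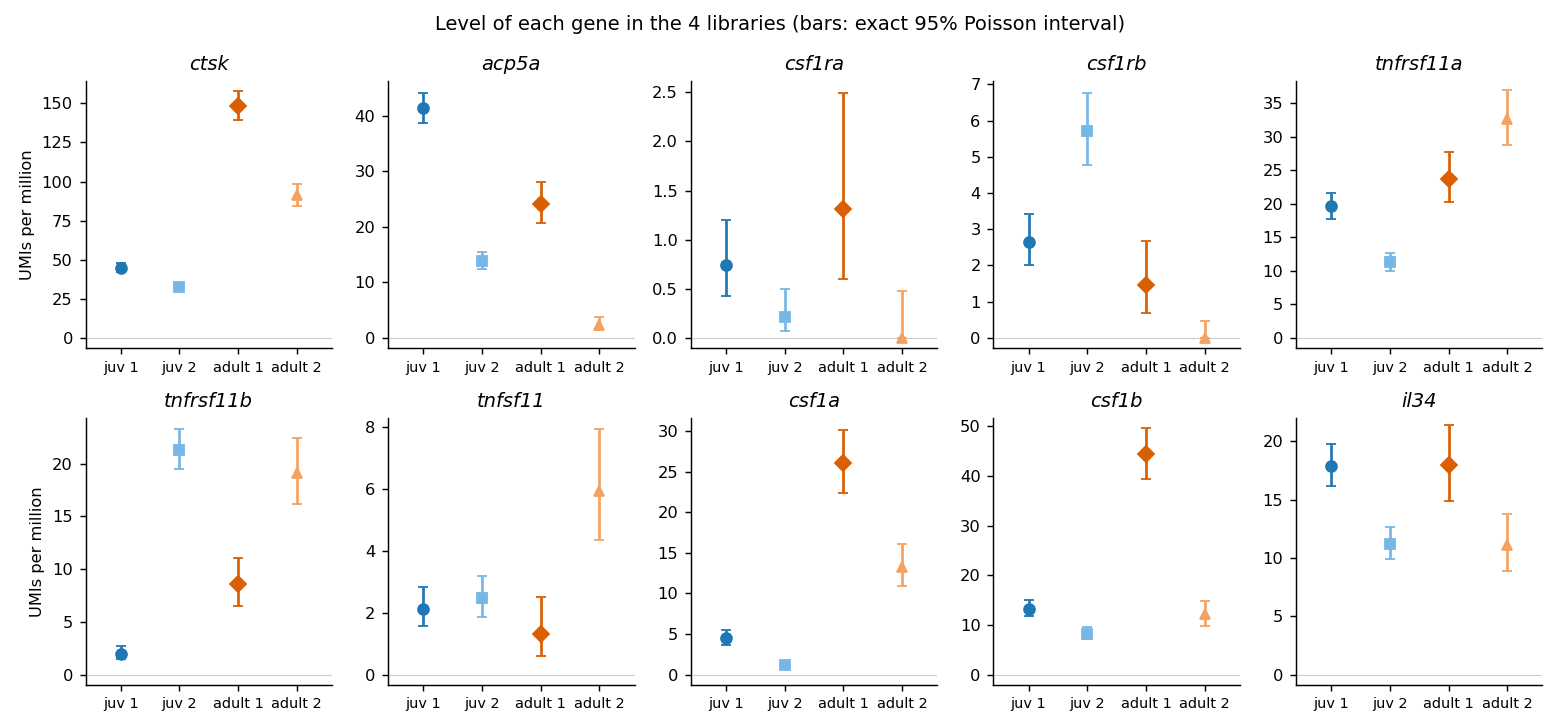
Level of each gene (one panel each, y axis in CPM from 0) in the 4 libraries (x axis); bars are exact 95% Poisson intervals of the count. *ctsk*, *tnfrsf11a* and *csf1a* were higher in both adult libraries, *csf1rb* was lower in both, and the other 6 genes overlapped between the stages.

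The juvenile and adult libraries were then compared. Over whole libraries, 3 of the 10 genes (*ctsk*, *tnfrsf11a*, *csf1a*) had both adult libraries above both juvenile ones and 1 (*csf1rb*) below, beside 13.1% and 43.8% of the 22562 genes with at least 20 UMIs. With 2 libraries against 2, the smallest p of a two-sided exact permutation test is 0.333, which these 4 genes reached. The quasi-likelihood test of edgeR, adjusted after Benjamini and Hochberg, called 0 of the 10 genes and 0.0% of the 19941 genes tested. At an unadjusted p under 0.05 there were 5004 genes, and DESeq2 called 2804, 2 of the 10 genes among them. 3 of the 10 (*ctsk*, *csf1a*, *csf1b*) had an unadjusted p under 0.05 by edgeR. The lowest adjusted p by edgeR were those of *ctsk*, with a log2 fold change of 2.14 (SE 0.45, adjusted p = 0.068), and *csf1a*, with 3.20 (SE 0.81, adjusted p = 0.0865). DESeq2 gave them an adjusted p of 0.000745 and 0.00204. *csf1b* had 1.75 (SE 0.59, adjusted p = 0.143 by edgeR), *tnfrsf11a* 1.49 (SE 0.60, adjusted p = 0.202 by edgeR) and *csf1rb* -2.11 (SE 1.13, adjusted p = 0.317 by edgeR). The other 5 genes had log2 fold changes between -0.83 (*acp5a*) and 1.46 (*tnfsf11*), with adjusted p of 0.390 to 0.788. p-values measure the spread between these libraries, which may be technical, and in whole-library sums more cells of a type and more RNA per cell cannot be told apart.

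The make-up of the libraries moved with stage. Connective and bone clusters were 28.7% and 25.2% of juvenile cells and 63.2% and 78.7% of adult cells. Within those clusters *ctsk* stood at 54.5, 70.8, 193 and 96.9 CPM and *csf1a* at 9.30, 3.33, 37.1 and 13.9, the adult libraries above. *tnfrsf11a* stood at 40.3, 30.4, 27.9 and 35.6 CPM there and *csf1b* at 28.3, 26.6, 61.6 and 12.9, and for both genes the stages overlapped. The share of all genes with such an order was not computed for these clusters. Their own make-up also moved with stage: chondrocyte-like cells, of which few had a UMI of *ctsk* or *csf1a*, numbered 443, 338, 14 and 16 by library. In mesenchyme-like cells alone the *ctsk* levels of the stages overlapped. Between the libraries that share the ecad:YFP gate, juvenile and adult replicate 1, the log2 difference was 1.73 for *ctsk*, 2.52 for *csf1a*, 1.74 for *csf1b* and 0.27 for *tnfrsf11a*, with no replicate and no test.

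In mesenchyme-like cells 7 of the 10 genes had enough counts, and edgeR called 0 of the 7 beside 2.32% of 9797 genes. DESeq2 also called 0 of the 7. Of the 7, *csf1a* alone had an unadjusted p under 0.05 by edgeR, beside 1317 of the 9797 genes. *csf1a* had a log2 fold change of 1.36 (SE 0.59, adjusted p = 0.338 by edgeR), *ctsk* 0.89 (SE 0.49, adjusted p = 0.491 by edgeR) and *csf1b* -0.84 (SE 0.56, adjusted p = 0.605 by edgeR). The remaining 4 lay between -0.75 (*acp5a*) and 0.67 (*tnfrsf11a*). By level, *csf1a* was higher in both adult libraries and *csf1b* lower in both, beside 8.84% and 39.1% of 12307 genes with at least 20 UMIs in these cells. For *csf1a* this order was near a tie, with 20.3 CPM in juvenile replicate 1 and 20.5 CPM in adult replicate 2. The whole-library log2 fold change of *csf1b*, 1.75, and that in mesenchyme-like cells thus had opposite signs; the difference between them was not tested.

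In macrophage-like cells 3 of the 10 genes could be tested, and edgeR called 0 of them and 0.0% of 3302 genes (183 at an unadjusted p under 0.05; DESeq2 called 4 genes and none of the 3). *ctsk* had -2.16 (SE 0.99, adjusted p = 0.874 by edgeR), *acp5a* -2.68 (SE 1.48, adjusted p = 0.920 by edgeR) and *tnfrsf11a* 0.69 (SE 0.70, adjusted p = 0.920 by edgeR). Without adult replicate 2, whose cells lacked the markers, the values were -2.01, -1.80 and 0.91. *tnfrsf11b*, which had too few counts with that library, then had a log2 fold change of 3.54. This value rests on 1 adult library assumed to vary like the juvenile ones. It also rests on few cells: over all classes of adult replicate 1, 3 cells held 29 of the 59 *tnfrsf11b* UMIs. In osteoblast-like cells, over 3 libraries because juvenile replicate 2 had too few cells, 4 of the 10 genes could be tested and edgeR called 0 of the 4, beside 2.02% of 4203 genes; DESeq2 called 0 of the 4 as well, and none had an unadjusted p under 0.05 by edgeR. *ctsk* had 1.07, *tnfrsf11b* 0.79, *il34* 0.33 and *tnfrsf11a* -0.01, with adjusted p of 0.81 to 1.00 by edgeR. The osteoblast-like cells of adult replicate 1 had 0 *tnfrsf11b* UMIs.

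**Figure D5:**
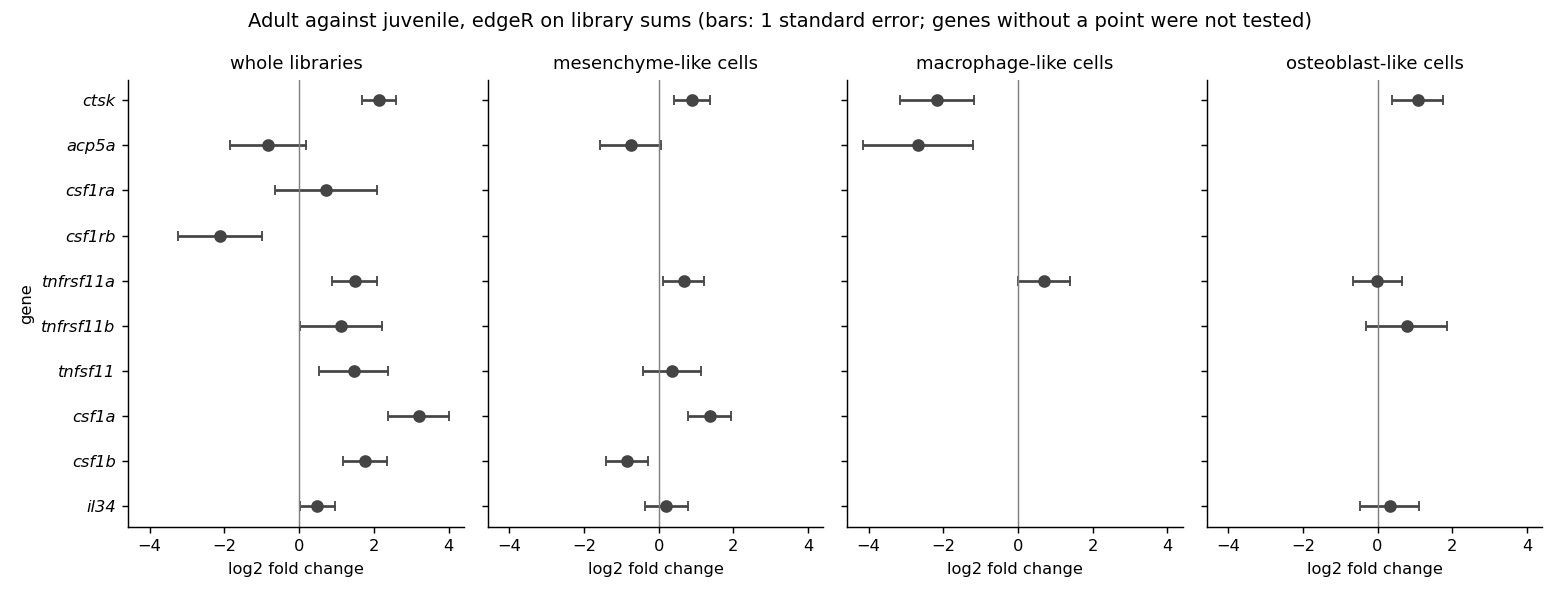
Log2 fold change of adult over juvenile libraries (x axis) for each gene (y axis) in whole libraries and in the 3 classes, from edgeR; bars are 1 standard error, and genes without a point had too few counts. In whole libraries *csf1a* (3.20) and *ctsk* (2.14) were the highest, and *csf1b* was at 1.75 in whole libraries and -0.84 in mesenchyme-like cells.

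The other genes of the pathway were taken from lists. Of the 20 genes listed for RANK signalling and cell fusion (*traf6*, *nfatc1*, *ocstamp* and others) 18 could be tested over whole libraries, of the 15 for bone resorption (*mmp9*, *clcn7*, *tcirg1b* and others) 15, of the 16 for the CSF1 receptor lineage (*spi1a*, *irf8*, *csf3r* and others) 13, and of the 3 for other IL34 receptors 2. None passed in either direction by edgeR. The median log2 fold changes of the lists were 0.30, 0.28, 0.80 and -2.0, beside -0.03 over all genes. In mesenchyme-like cells 11, 9, 5 and 0 genes could be tested, in macrophage-like cells 9, 12, 11 and 0 and in osteoblast-like cells 6, 5, 5 and 0, and none passed there either. In macrophage-like cells the medians of the first 3 lists were 0.84, -0.01 and -0.01, beside -0.19 over all genes.

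Genes whose levels followed each of the 10 most closely were sought over 64 sums of a class in a library, by Pearson's r of log2(CPM + 10), as a description, since sums of 1 library share its depth and make-up. Among genes outside the 10, *acp5a* was closest to NPC2_1_of_many (r = 0.92), XLOC_010382 (0.84) and *cmklr1* (0.84), which encodes a chemerin receptor of macrophages; with *csf1ra*, one of the 10, it had r = 0.87. *csf1ra* was likewise closest to NPC2_1_of_many (0.90) and *ccl34a.4* (0.89), and *csf1rb* to *lgals9l1* (0.85) and *havcr1* (0.83). *ctsk* was closest to *krt18b* (0.79) and *ckba* (0.76). Among the ligands *tnfsf11* was closest to *cyp2r1* (0.72) and the tendon gene *tnmd* (0.66), *csf1a* to *lrrc17* (0.73), FP102018.1 (0.72) and *itga11a* (0.71), *csf1b* to *pigr*, the Wnt modulator *sfrp2* and *pah* (0.77 each), and *il34* to zgc:77112 and *ved* (0.77 each). *tnfrsf11a* was closest to *fpr1* (0.72) and *itga10* (0.70), a collagen receptor subunit of cartilage, with the mineralization gene *entpd5a* next (0.69), and *tnfrsf11b* to si:dkey-188i13.6 (0.77), CU682640.1 (0.73) and *mmp30* (0.70).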

How the data were processed

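Droplet libraries (10x Genomics 3′ v.2) were aligned and counted by the authors with Cell Ranger against GRCz11, and the matrices they deposited give unnormalized UMI counts of each gene in each cell; the submitters' processing notes also name Seurat 4.1.1. Cells with over 200 and under 2500 genes and under 25% of UMIs on 6 mitochondrial genes were kept, 16245 juvenile and 5066 adult of 21645 barcodes, which are the numbers of cells the study gives. Depth was 6860615 to 23504027 UMIs per library; intervals and the limit of 3 counts for a count of 0 cover counting error only.

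Libraries were normalized, integrated and clustered (Seurat 5.3.0, sctransform 0.4.2, R 4.3.3) with the 10 genes left out of the features, and sub-clusters were named from marker lists by a rule set after the clusters were seen. The members and lists were chosen with earlier results of these data known. Every member is described; of other genes, those that passed a test and the 3 of closest pattern could be named, and genes of the *acp5a*-high cells were named after their values were seen. Names are rebuilt and may differ from the study's. The automatic doublet calls of Scrublet (scanpy 1.11.5) marked 7 cells in all and were not used; doublets were kept, and the top 5% of scores removed as an alternative. UMIs were summed per library and class of at least 10 cells and tested with edgeR 4.0.16 (quasi-likelihood, TMM; checked on simulated data), with DESeq2 1.42.0, library totals, no filter, other cell sets, no integration and left-out libraries as alternatives. The reference held no sequence of this build, and sequences are not used here.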

Additional observations from a re-analysis of the deposited data

Results flagged for a closer look

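Some of the 10 genes were also counted in the barcodes outside the cell filter, above the 3 counts that a count of 0 allows. *ctsk* had 16 UMIs in the 71 such barcodes of juvenile replicate 1 (37.6 CPM), 27 in the 151 of juvenile replicate 2 (20.0 CPM) and 6 in the 76 of adult replicate 2 (43.0 CPM). *acp5a* had 4 and 14 UMIs there in juvenile replicates 1 and 2, *tnfrsf11a* had 9 and 6 in the same libraries, and *csf1rb* had 11 in juvenile replicate 2. *tnfrsf11b* had 14 UMIs in juvenile replicate 2, 10 in the 36 barcodes of adult replicate 1 (79.4 CPM) and 27 in adult replicate 2 (193 CPM).

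*ctsk* went in opposite directions with stage in a pair of classes. In macrophage-like cells its mean level changed by -342 CPM from juvenile to adult libraries, and in epithelial-like cells by 16.3 CPM, with no overlap of the stages in either class. The share of all genes without overlap was not computed for these classes. In mesenchyme-like cells it was 8.84% above and 39.1% below in the adult libraries. Epithelial-like cells numbered 46, 432, 68 and 66 by library. Without the cells of at least 10 *acp5a* UMIs the macrophage-like levels were 271 and 109 CPM in juvenile and 95.1 and 101 CPM in adult replicates 1 and 2, against 698, 192, 104 and 101 CPM with them; 1 cell of juvenile replicate 1 held 173 of its 320 *ctsk* UMIs in this class. The difference between the classes was not tested, and the adult macrophage-like mean includes the 18 cells of adult replicate 2 that lacked macrophage markers.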

How the results depend on the processing

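No paired analysis was possible because the labels give no replicate numbers. Of the 10 genes, edgeR called 0 over whole libraries, against 2 by DESeq2 and 2 without the filter on low counts (*ctsk* and *csf1a* both times), and 0 to 3 with a library left out (*ctsk*, *tnfsf11* and *csf1rb* without adult replicate 1, a fit whose spread comes from the juvenile libraries alone and in which *csf1rb* is at 0 in the only adult library). In macrophage-like cells 1 was called without integration (*tnfrsf11b*), where adult replicate 2 had no such cells and dropped out too, and 0 to 1 with a library left out (*tnfrsf11b* without adult replicate 2). Over all genes, the calls in whole libraries went from 0 to 615 with library totals, 2751 without the filter, 2528 without adult replicate 1 and 1085 without adult replicate 2; in mesenchyme-like cells from 227 to 639 without the filter, 131 without doublets, 112 without integration and 70 to 673 with a library left out; in osteoblast-like cells from 85 to 23 by DESeq2 and 29 without the filter; and in macrophage-like cells from 0 to 4 by DESeq2, 2 without the filter, 76 without integration and so without adult replicate 2 (86 without that library alone) and 1 to 136 with a library left out. Library totals moved the median log2 fold change of all genes to -0.57 in whole libraries and -0.43 in mesenchyme-like cells.

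Signs changed when a library was left out for *acp5a* (-2.76 to 0.41), *tnfsf11* (-0.60 to 2.28), *tnfrsf11b* (-0.094 to 3.36) and *csf1ra* (-6.09 to 1.57) in whole libraries, for *acp5a* (-1.53 to 1.47), *tnfsf11* (-1.30 to 1.19), *tnfrsf11a* (-0.0303 to 1.23) and *il34* (-0.14 to 0.74) in mesenchyme-like cells and for *tnfrsf11a* (-0.25 to 0.97) in macrophage-like cells. With library totals *il34* stood at -0.0051 in whole libraries, -0.16 in mesenchyme-like and -0.0569 in osteoblast-like cells, and *tnfsf11* at -0.18 in mesenchyme-like cells; without doublets *acp5a* stood at 1.24 in mesenchyme-like cells, and by DESeq2 *tnfrsf11a* at 0.0389 in osteoblast-like cells. The cause of these changes was not tested. In its leading class, the level of each gene stayed within 1 SD of the libraries in all 72 alternatives, including those without the *acp5a*-high cells, which were chosen after seeing the data. This limit is wide where the libraries differ much, so that staying within it does not mean that a level held. In macrophage-like cells *acp5a* went from 640 to 153 CPM and *ctsk* from 324 to 153 CPM once the *acp5a*-high cells were left out. Without those cells the stage difference of *acp5a* over whole libraries was 3.83 CPM. With 30 UMIs of *csf1ra* and 159 of *tnfsf11*, small differences between libraries were not detectable at this depth.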
